A study of Mus musculus with 4 samples.

Results

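Collagen hydroxylases and folding factors were examined as a group of 10 genes, Plod1, Plod2, Plod3, P4ha1, P4ha2, P4ha3, P3h1, Serpinh1, Fkbp10 and Crtap, picked by symbol among the 21885 genes of 4 spatial heart matrices. Each of the 10 symbols was found in 1 row, and each gene passed the filter on low counts in every comparison described here. Their levels were followed from an uninjured heart to hearts 3 and 5 days after myocardial infarction (MI), and from the remote wall into the infarct.

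Polyadenylated RNA was captured on Visium arrays, where each spot can cover several cells, from 1 section per heart. All mice carried the Collagen1a1-GFP+ genotype, a green fluorescent reporter of a fibroblast collagen gene, and were 8 to 12 weeks old. The control heart was healthy, and the others had MI by ligation of the left anterior descending coronary artery, with 1 heart at 3 days post infarction (dpi) and 2 hearts at 5 dpi. The control, the 3 dpi heart and 1 of the 5 dpi hearts were labelled female, and the other 5 dpi heart male, so that the 5 dpi sections are called 5 dpi F and 5 dpi M after their labels. Neither the control nor the 3 dpi group had a replicate.

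The sex labels at 5 dpi went against the counts. UMIs (unique molecular identifiers, each 1 captured molecule) of 4 Y-linked genes numbered 704 in 5 dpi F and 1 in 5 dpi M, and 0 in the control and at 3 dpi. F and M are therefore names here, and both sections enter every comparison as 5 dpi hearts. Kept spots numbered 1146 in the control and 1423 to 1741 in the infarcted sections, with 6250183 and 9701545 to 11010109 UMIs. Mitochondrial genes took 40.1% of the UMIs in the control and 13.3% to 21.4% after infarction, so that levels are given as CPM, UMIs relative to a common library size, with mitochondrial UMIs left out of the total. In the infarcted sections, spots were sorted into an infarct zone (IZ), a near border zone (BZ2), a far border zone (BZ1) and a remote zone (RZ) by their content of 12 cardiomyocyte marker genes. These zones held 200 to 533 spots in the RZ and 684 to 1061 in the IZ, and the same rule put 1145 of the 1146 control spots in the RZ. The summed level of these cardiomyocyte markers was 6719 to 20457 CPM in the IZ and 81801 to 98085 CPM in the RZ, a difference that the sorting itself made. Macrophage markers, 8 genes that the sorting did not use, summed to 7039 to 11145 CPM in the IZ and to 1497 to 1970 CPM in the RZ. Since a spot mixes cells, more cells of a type and more RNA per cell cannot be told apart in any value below.

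A collagen chain is changed and folded in the endoplasmic reticulum before it leaves the cell. Prolyl 4-hydroxylase, whose catalytic subunits are encoded by P4ha1, P4ha2 and P4ha3, hydroxylates prolines and so allows a heat-stable triple helix, while lysyl hydroxylases (Plod1, Plod2, Plod3) hydroxylate lysines that later carry sugars and cross-links. P3h1 and Crtap are partners in the complex that 3-hydroxylates a proline of fibrillar collagen, Serpinh1 encodes HSP47, a chaperone that binds the folded triple helix, and Fkbp10 encodes FKBP65, a prolyl isomerase that assists folding and lysyl hydroxylation. In a healing infarct, fibroblasts deposit the collagen that replaces dead muscle.

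The P4ha paralogues differed among themselves in these hearts, and their promoters are shown because P4ha1 and P4ha2 are known targets of hypoxia-inducible factors. Sequences are from RefSeq (assembly GRCm38.p6), 250 bases before to 50 bases after the gene start, written 5′ to 3′ on the gene's strand, which was the plus strand for all of them. Capitals mark the core letters of the hypoxia response element, ACGTG or GCGTG, or the same letters read from the other strand (CACGT or CACGC).
P4ha1, at chr10:59323046-59323345: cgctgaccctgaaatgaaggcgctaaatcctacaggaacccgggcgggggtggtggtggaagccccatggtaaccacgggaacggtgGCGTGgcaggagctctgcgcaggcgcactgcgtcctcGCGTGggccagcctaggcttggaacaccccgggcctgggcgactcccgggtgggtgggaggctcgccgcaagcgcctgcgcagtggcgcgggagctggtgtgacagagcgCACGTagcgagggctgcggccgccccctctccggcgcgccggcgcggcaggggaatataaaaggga
P4ha2, at chr11:54100674-54100973: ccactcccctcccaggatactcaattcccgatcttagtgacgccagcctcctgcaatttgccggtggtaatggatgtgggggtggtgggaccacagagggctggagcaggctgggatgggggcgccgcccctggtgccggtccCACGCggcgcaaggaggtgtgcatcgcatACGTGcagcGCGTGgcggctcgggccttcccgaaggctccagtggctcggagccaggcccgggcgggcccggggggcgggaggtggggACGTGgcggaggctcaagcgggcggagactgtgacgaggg
P4ha3, at chr7:100285270-100285569: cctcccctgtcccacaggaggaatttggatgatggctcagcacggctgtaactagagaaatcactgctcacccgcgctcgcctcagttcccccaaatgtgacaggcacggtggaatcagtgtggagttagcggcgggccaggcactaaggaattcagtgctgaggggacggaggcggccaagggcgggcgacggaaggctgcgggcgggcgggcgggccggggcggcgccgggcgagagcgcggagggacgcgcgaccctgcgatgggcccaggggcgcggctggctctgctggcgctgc
The letters began at 3 places in the P4ha1 window, 4 in the P4ha2 window and 0 in the P4ha3 window. Of the 10 genes 8 had an entry, and Plod2 and Fkbp10 had none. The letters were held by 7 of these 8, against 43.8% of all 32851 promoters of the table. The first count is per gene and the second per promoter, and base content was not matched. A match of 5 letters is a description of the sequence and shows no binding.

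Over whole sections, the prolyl 4-hydroxylase subunit P4ha3 went from undetected to well measured. P4ha3 gave 0 UMIs in the control, which allows up to 0.802 CPM at 3 counts of its 3742105 UMIs, and 27.1 CPM at 3 dpi, 66.5 CPM in 5 dpi F and 51.6 CPM in 5 dpi M. Against the floor of 3 counts in the control, P4ha3 was at least 33.8-fold higher at 3 dpi, at least 82.9-fold in 5 dpi F and at least 64.4-fold in 5 dpi M. Its paralogue P4ha1 measured 28.1 CPM in the control, 49.0 at 3 dpi, 45.2 in 5 dpi F and 37.0 in 5 dpi M. P4ha2 stood at 37.7 CPM in the control and at 65.6, 76.9 and 61.7 CPM in the infarcted sections in the same order. All 3 infarcted sections were thus above the control for each paralogue, by 1.32-fold to 1.74-fold for P4ha1 and by 1.64-fold to 2.04-fold for P4ha2.

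Among lysyl hydroxylases, Plod1 was the most counted in the control, at 111 CPM, and stayed within 1.75-fold of this, with 184 CPM at 3 dpi, 194 in 5 dpi F and 189 in 5 dpi M. Plod3, which also transfers sugars to hydroxylysine, measured 35.5 CPM in the control and 132, 203 and 152 CPM after infarction. Plod2, the hydroxylase of the telopeptides that form hydroxylysine cross-links, went from 8.28 CPM, 31 UMIs, to 24.6, 39.9 and 29.3 CPM. The infarcted sections exceeded the control by 1.66-fold to 1.75-fold for Plod1, by 3.73-fold to 5.71-fold for Plod3 and by 2.97-fold to 4.82-fold for Plod2.

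The chaperones and the 3-hydroxylation complex were also above the control in all 3 infarcted sections. Serpinh1 was the most abundant gene of the group, at 343 CPM in the control, 1589.7 at 3 dpi, 2071 in 5 dpi F and 1482 in 5 dpi M. Fkbp10 measured 26.7 CPM in the control and 199.7, 333 and 254 CPM in the infarcted sections, 7.47-fold to 12.5-fold the control. Levels of P3h1 were 14.96 CPM and then 80.8, 119 and 89.5 CPM. Its partner Crtap went from 27.8 to 92.3, 134 and 105 CPM, so that P3h1 exceeded the control by 5.40-fold to 7.94-fold and Crtap by 3.32-fold to 4.81-fold.

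Counted over the group, 10 of 10 genes were above the control in all 3 infarcted sections, where 64.5% of 9304 genes with at least 10 CPM in a section were, and 7 of 10 were at least 2-fold above it in all 3, where 24.6% were. The genes short of 2-fold in a section were Plod1, P4ha1 and P4ha2. The median log2 ratio to the control over the 10 genes was 1.81 at 3 dpi and 2.21 for the mean of the 5 dpi sections. Cardiomyocyte markers summed to 101295 CPM in the control and to 45259, 19812 and 37059 CPM in the infarcted sections, and macrophage markers to 906 and to 5115, 9353 and 6873 CPM. Neutrophil markers went from 16.6 CPM to between 143 and 212 CPM, mural markers from 562 CPM to between 304 and 341 CPM, endothelial markers from 2670 CPM to between 1244 and 2171 CPM and fibroblast markers from 2460 CPM to between 1714 and 2339 CPM. Erythroid markers were at 8667 CPM and at 4036, 23384 and 12926 CPM, and the part of these cell types in the ratios was not tested. These ratios have no test, because the control is 1 section, and they depend on scaling: with TMM size factors over the 4 sections the medians were 1.38 and 1.79. In both 5 dpi sections 7 genes were above the 3 dpi section (29.8% of all genes) and P4ha1 was below it (38.0%).

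**Figure D1:**
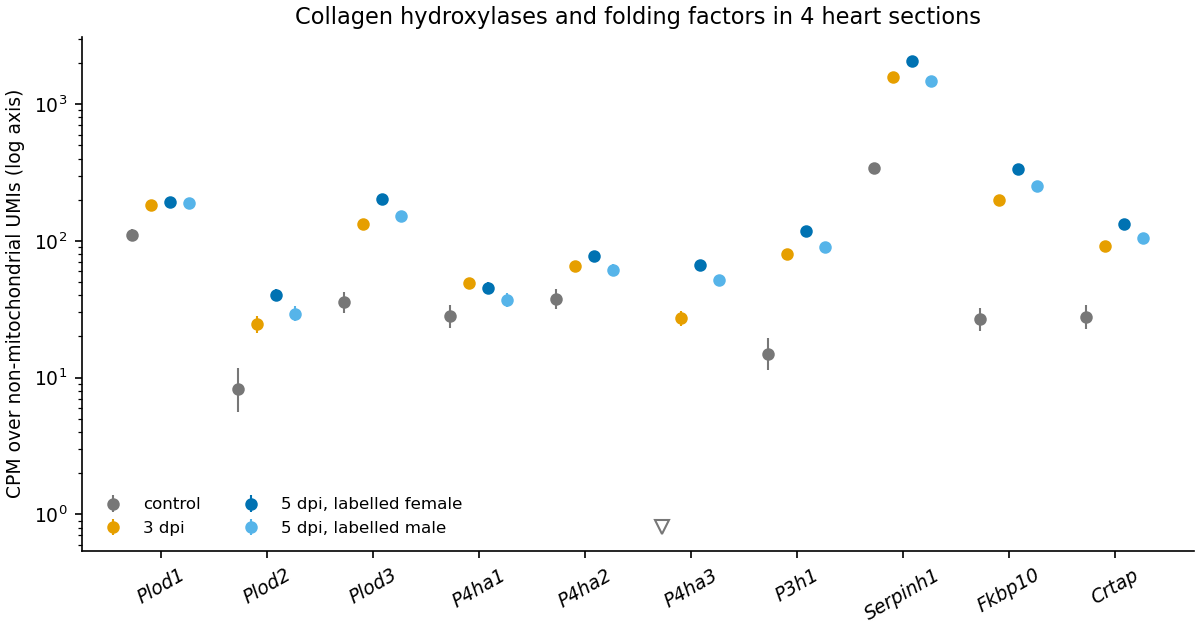
CPM over non-mitochondrial UMIs, on a log axis, for each of the 10 genes in the control, the 3 dpi section and the 5 dpi sections by their labels. Bars are exact Poisson 95% intervals that cover counting error only, and the open triangle is the floor of 3 counts for P4ha3 in the control, where it had 0 UMIs. Serpinh1 is highest throughout, and Plod1, P4ha1 and P4ha2 lie closest to the control.

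The control spots were compared by their muscle content, with no test. When they were split into 3 equal parts by their share of cardiomyocyte markers, Serpinh1 measured 353, 332 and 344 CPM from the lowest to the highest part, and Plod3 35.1, 36.2 and 35.3 CPM. P4ha3 had 0 UMIs in each part. Plod1 was lower with more muscle, at 121, 111 and 97.3 CPM in the same order, and Plod2 was uneven, with 14, 0 and 17 UMIs. The other 5 genes rest on 16 to 51 UMIs in each part. In the control 1099 of 1146 spots held at least 0.75 times the 90th percentile of the marker share, so that the range of muscle content there was narrow.

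Inside the infarcted sections, the group was higher toward the infarct, and the prolyl 4-hydroxylases showed the widest split. P4ha3 measured 3.01 CPM in the RZ and 39.7 in the IZ at 3 dpi, 9.55 and 80.1 in 5 dpi F, and 3.63 and 83.3 in 5 dpi M, with 4 to 9 UMIs behind each RZ value. The IZ level was 13.2-fold, 8.39-fold and 23.0-fold that of the RZ. In edgeR's quasi-likelihood test over zone sums, with TMM scaling and the section as a block, the log2 fold change of P4ha3 was 3.48 (SE 0.26, adjusted p = 4.79e-10). P4ha1 measured 28.6 CPM in the RZ and 59.1 in the IZ at 3 dpi, 32.2 and 45.3 in 5 dpi F, and 29.0 and 44.2 in 5 dpi M. P4ha2 went from 48.2 to 75.3, from 51.3 to 79.3 and from 38.7 to 74.8 CPM. By CPM the IZ was higher in 3 of 3 sections for both, as for 10 of 10 genes of the group and 57.2% of all genes, but the TMM fits gave log2 fold changes of 0.30 (SE 0.21, edgeR adjusted p = 0.248) for P4ha1 and 0.36 (SE 0.16, edgeR adjusted p = 0.0614) for P4ha2, short of the threshold of 0.05. Without the 3 dpi section P4ha2 reached an edgeR adjusted p of 0.0395, with a log2 fold change of 0.42.

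The lysyl hydroxylases split in the same manner. Plod3 measured 61.7, 62.1 and 56.8 CPM in the RZ and 161, 229 and 212 CPM in the IZ at 3 dpi, in 5 dpi F and in 5 dpi M, with a log2 fold change of 1.33 (SE 0.15, edgeR adjusted p = 1.35e-07). Plod2 stood at 9.03, 5.97 and 11.3 CPM in the RZ, with 5 to 28 UMIs, and at 31.5, 46.1 and 42.4 CPM in the IZ, with a log2 fold change of 1.66 (SE 0.23, edgeR adjusted p = 3.85e-06). For both genes the IZ was above the RZ in 3 of 3 sections by CPM, as for 57.2% of all genes. Plod1 measured 144, 154 and 131 CPM in the RZ and 199.6, 193 and 224 CPM in the IZ. Its log2 fold change after TMM scaling was 0.14 (SE 0.15, edgeR adjusted p = 0.447), close to the median of 0.08 over all genes tested.

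Serpinh1, Fkbp10, P3h1 and Crtap were all higher in the IZ. Serpinh1 measured 607, 653 and 547 CPM in the RZ and 2050.2, 2375 and 2101 CPM in the IZ at 3 dpi, in 5 dpi F and in 5 dpi M, a log2 fold change of 1.47 (SE 0.12, edgeR adjusted p = 1.43e-09). Fkbp10 rose from 68.5, 64.5 and 54.8 CPM to 265, 391 and 388 CPM, a log2 fold change of 2.08 (SE 0.16, edgeR adjusted p = 8.09e-10). Apart from P4ha3, this was the highest estimate of the 10. P3h1 went from 29.4, 37.0 and 29.4 CPM to 104, 136 and 131 CPM, a log2 fold change of 1.57 (SE 0.17, edgeR adjusted p = 1.38e-07). Crtap went from 43.7, 58.5 and 46.3 CPM to 118, 151 and 142 CPM, a log2 fold change of 1.10 (SE 0.13, edgeR adjusted p = 5.86e-07). By CPM the IZ was above the RZ in 3 of 3 sections for each of these genes, as for 57.2% of all genes.

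In all, 7 of 10 genes were higher in the IZ and 0 were lower, where 28.2% of 9811 genes tested were called higher and 25.8% lower. The median log2 fold change of the group was 1.40. The split between the 7 genes and Plod1, P4ha1 and P4ha2 rests on the scaling. TMM lowered log2 fold changes between IZ and RZ by 0.39 relative to plain CPM, and with plain CPM 10 of 10 genes passed, where 48.6% of genes were called higher and 17.0% lower. The log2 fold changes of these 3 genes were then 0.54 for Plod1, 0.69 for P4ha1 and 0.75 for P4ha2, still the lowest of the 10.

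**Figure D2:**
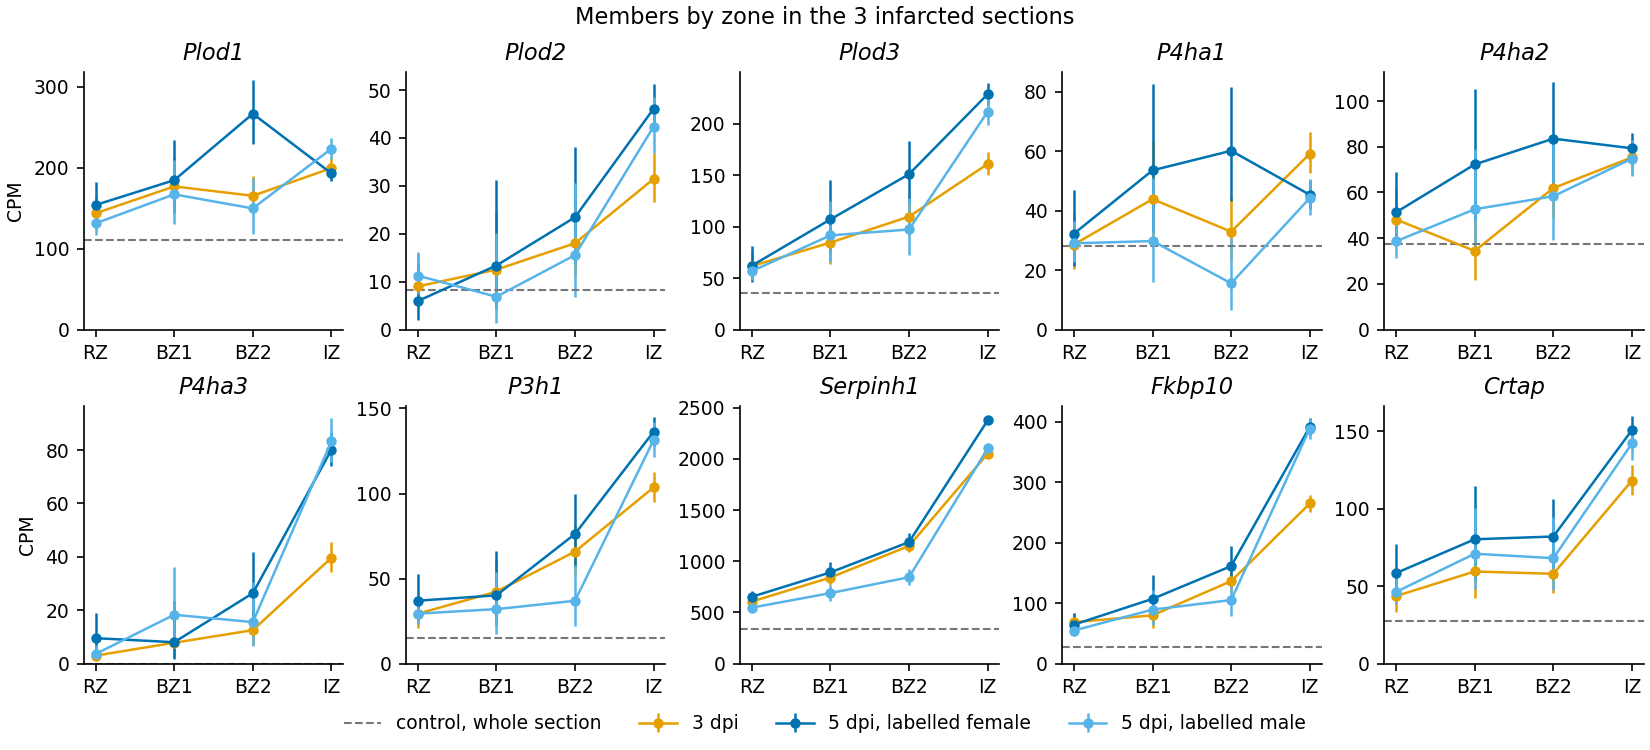
CPM of each gene in the RZ, BZ1, BZ2 and IZ of the 3 infarcted sections, with exact Poisson 95% intervals for counting error only and the control section as a dashed line. Each panel has its own axis from 0. P4ha3, Fkbp10, Serpinh1 and P3h1 are highest in every IZ, while Plod1, P4ha1 and P4ha2 have IZ values close to those of the border zones in some sections.

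In the near border zone BZ2, which lies within 2 spot steps of the IZ, 5 of 10 genes were higher than in the RZ and 0 lower, where 3.95% of genes were called higher and 4.66% lower. These were P4ha3 (log2 fold change 1.87), Fkbp10 (0.95), Plod3 (0.82), P3h1 (0.79) and Serpinh1 (0.65), with edgeR adjusted p-values of 0.00132 to 0.0196. By CPM the BZ2 was above the RZ in 3 of 3 sections for 9 genes, all but P4ha1, as it was for 31.6% of all genes. Serpinh1, for example, measured 1149 CPM in the BZ2 at 3 dpi, 1187 in 5 dpi F and 844 in 5 dpi M, each between the RZ and IZ values of its section. Plod2 had a log2 fold change of 0.86 (SE 0.32, edgeR adjusted p = 0.106) from 8 to 23 UMIs per BZ2. With plain CPM 6 genes passed, where 7.52% of genes were called higher and 2.95% lower. The estimates for P4ha2, Crtap, Plod1 and P4ha1 were 0.40, 0.33, 0.27 and 0.06 and did not pass. This border result was fragile: 1 gene passed without 5 dpi F, 1 without the section block and 3 with the zone limit at 0.667 of the 90th percentile, and with the limit set from the control 0 did. Cardiomyocyte markers were lower and macrophage markers higher in the BZ2, with 7 of 12 and 4 of 8 past the threshold, erythroid markers were lower in 4 of 4 cases, and their part in these values was not tested.

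Between the IZ and the BZ2, 7 of 10 genes were higher in the IZ and 0 lower, where 15.7% and 18.6% of all genes were (28.1% and 13.8% with plain CPM, and again 7 members). The log2 fold changes were 1.61 for P4ha3, 1.13 for Fkbp10, 0.82 for Serpinh1, 0.80 for Plod2, 0.78 for P3h1, 0.76 for Crtap and 0.51 for Plod3, with edgeR adjusted p-values of 9.09e-06 to 0.0118. Crtap, flat from BZ1 to BZ2 at 59.5 and 58.0 CPM at 3 dpi, 80.3 and 82.1 in 5 dpi F and 71.0 and 68.1 in 5 dpi M, was higher across the IZ edge. P4ha1 (0.24), P4ha2 (-0.05) and Plod1 (-0.12) did not pass. The IZ was above the BZ2 in 3 of 3 sections by CPM for those 7 genes, as for 46.3% of all genes. Plod1 in 5 dpi F was higher in the BZ2 than in the IZ, at 267 against 193 CPM, but not in the other sections, where the BZ2 measured 165 and 149.8 CPM. Cell markers also differed, with 12 of 12 cardiomyocyte, 4 of 5 mural and 3 of 6 endothelial markers lower in the IZ and 8 of 8 macrophage, 3 of 3 neutrophil and 1 of 5 mural markers higher, and their part was not tested. Without 5 dpi F or without 5 dpi M, Plod2 and Plod3 no longer passed, with log2 fold changes of 0.77 and 0.53 and of 0.66 and 0.35. With the zone limit at 0.333 of the 90th percentile only P4ha3, Serpinh1 and Fkbp10 passed, with 3 of 10 genes called.

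**Figure D3:**
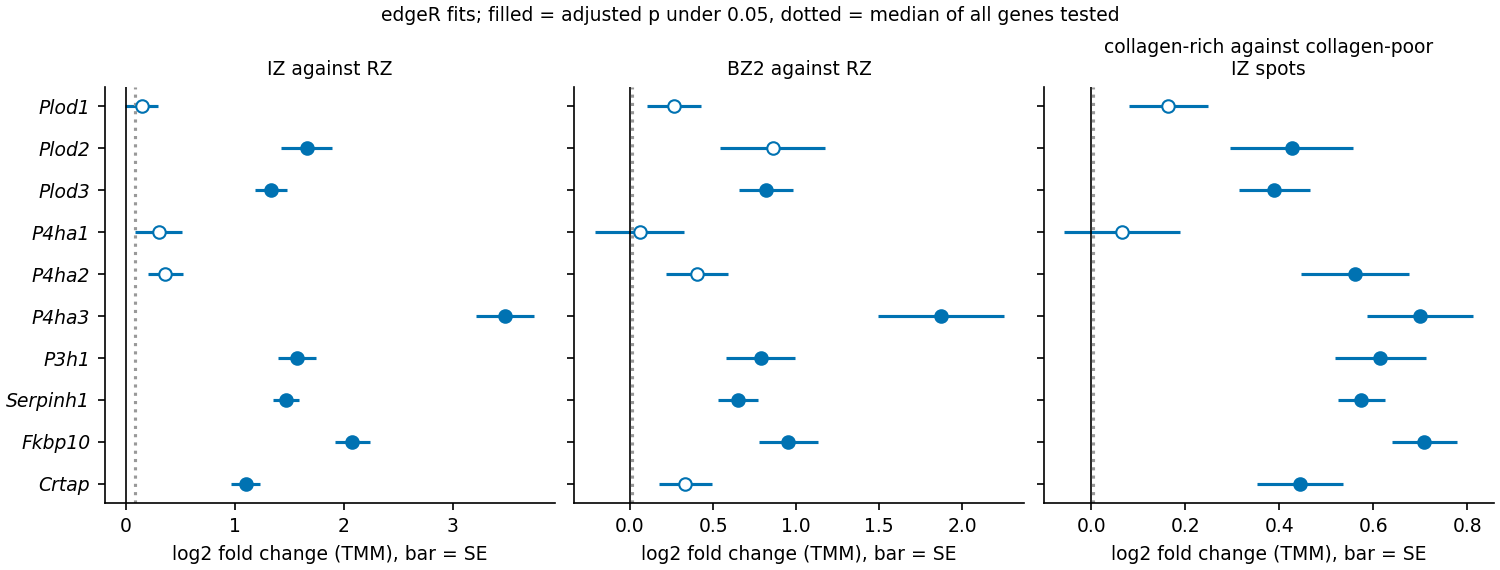
Log2 fold change with its SE for each of the 10 genes in 3 edgeR fits (IZ against RZ, BZ2 against RZ, and collagen-rich against collagen-poor IZ spots), filled where the adjusted p is under 0.05. The dotted line is the median of all genes tested. P4ha3 and Fkbp10 lead the first panel at 3.48 and 2.08, and P4ha1 and Plod1 are open in all panels.

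Inside the IZ, the chaperones were highest in the core at 5 dpi. Serpinh1 measured 2508 CPM over 4 steps inside the IZ edge and 1846 within 2 steps of it in 5 dpi F, and 2191 and 1563 in 5 dpi M, while the values at 3 dpi were 2026 and 1959.6. Fkbp10 measured 421 and 285 CPM in 5 dpi F, 411 and 245 in 5 dpi M, and 300.0 and 224 at 3 dpi. P4ha3 peaked between these depths, at 3 to 4 steps inside the edge, with 116 CPM in 5 dpi F, 105 in 5 dpi M and 48.1 at 3 dpi. Its core values were 82.0, 82.9 and 34.4 CPM in the same order. Plod1 was not higher in the core, at 186, 218 and 194 CPM against 218, 243 and 195 CPM near the edge. These depths were not tested.

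Because of these unequal changes, the mix of paralogues shifted. The share of a gene in the UMIs of its family is used here, since the assay counts 1 tag per molecule and needs no division by transcript length, although capture may differ between genes. In the control, Plod1 gave 71.7% of the Plod UMIs, Plod3 23.0% and Plod2 5.35%. From RZ to IZ the share of Plod1 went from 67.0% to 50.9% at 3 dpi, from 69.4% to 41.3% in 5 dpi F and from 65.9% to 46.8% in 5 dpi M. Plod3 went from 28.8% to 41.1%, from 28.0% to 48.9% and from 28.5% to 44.3%, above Plod1 in the IZ of 5 dpi F and below it at 3 dpi, with overlapping counting intervals in 5 dpi M. Plod2 stayed the smallest, from 4.21% to 8.03%, from 2.69% to 9.86% and from 5.66% to 8.87%. The mean change was -21.1 ± 6.25 percentage points for Plod1, 16.3 ± 4.34 for Plod3 and 4.73 ± 2.13 for Plod2 (SD, n = 3 sections), with the same sign in 3 of 3 sections.

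In the P4ha family, P4ha2 gave 57.3% and P4ha1 42.7% of the control UMIs, with P4ha3 at 0. The share of P4ha3 went from 3.77% in the RZ to 22.8% in the IZ at 3 dpi, from 10.3% to 39.1% in 5 dpi F and from 5.08% to 41.2% in 5 dpi M. At 5 dpi it was the largest of the P4ha shares in the IZ, though with counting intervals that overlapped those of P4ha2 in both sections, where P4ha2 had 38.7% and 37.0% and P4ha1 22.1% and 21.9%. The P4ha3 share changed by 28.0 ± 8.57 percentage points, that of P4ha2 by -16.9 ± 0.467 and that of P4ha1 by -11.1 ± 8.55 (SD, n = 3 sections). With 3 sections an exact sign-flip test cannot give a two-sided p under 0.25, so that these shifts are given with their spread alone.

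**Figure D4:**
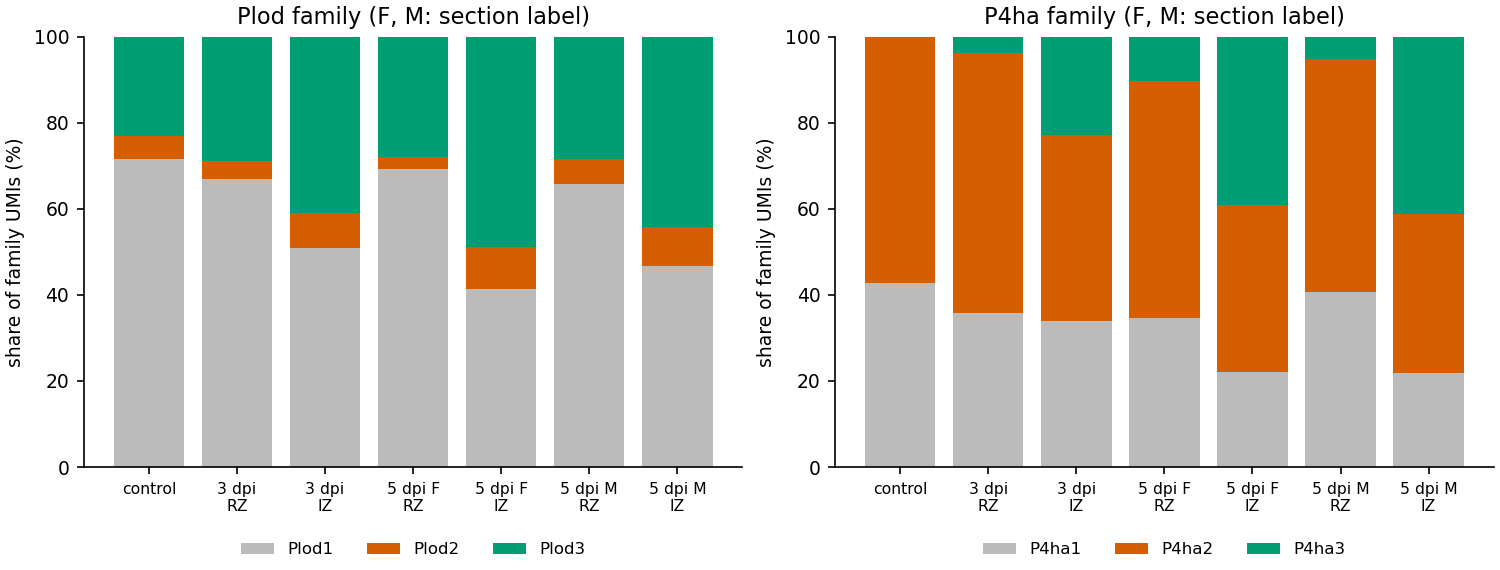
Share of each paralogue in the UMIs of its family (%), for the control section and for the RZ and IZ of the 3 infarcted sections, with F and M as the labels of the 5 dpi sections. Plod3 widens at the cost of Plod1 in every IZ, and P4ha3 grows from under 11% in each RZ to 22.8% to 41.2% in the IZ.

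Most of these factors did not keep pace with the collagen transcripts on which their products act, and neither did genes in general. In the fit of IZ against RZ the median log2 fold change was 0.08 over all genes tested, 1.40 over the group and 2.73 for Col1a1. A lower ratio to collagen is therefore not particular to the group. Col1a1, Col1a2 and Col3a1, chains of collagens I and III, summed to 466 CPM in the control section and to 10505, 20062 and 17744 CPM in the IZ at 3 dpi, in 5 dpi F and in 5 dpi M. Set against these transcripts, the sum of the 10 genes was 1357 UMIs per 1000 collagen UMIs in the control. In the RZ the sum was 469.7, 400.1 and 520.5 per 1000, and in the IZ 295, 186 and 194 per 1000. The IZ was lower in 3 of 3 sections, with a mean log2 change of -1.07 ± 0.379 (SD, n = 3). Between genes the ratio differed widely: Plod1 went from 64.8, 54.6 and 72.1 to 19.0, 9.62 and 12.6 per 1000, whereas Fkbp10 went only from 30.9, 22.9 and 30.1 to 25.2, 19.5 and 21.9. P4ha3 was higher in the IZ in each section, at 3.78, 3.99 and 4.69 per 1000 against 1.36, 3.39 and 1.99. Its RZ ratios rest on 4 to 9 UMIs. Plod2 had the next highest mean log2 change after P4ha3 and Fkbp10, at -0.57 ± 0.754, with the sign turned in 5 dpi F.

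**Figure D5:**
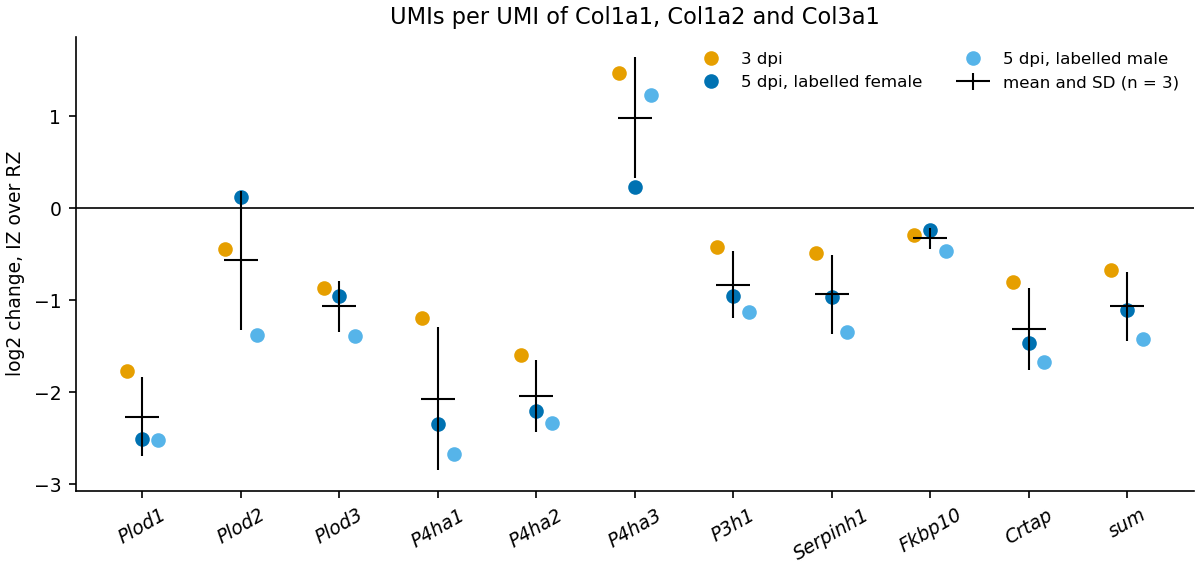
Log2 change from RZ to IZ of the UMIs of each gene, and of their sum, per UMI of Col1a1, Col1a2 and Col3a1 in the 3 infarcted sections, with the mean and SD. P4ha3 lies above 0 in 3 of 3 sections, Fkbp10 lies closest below 0, and Plod1, P4ha1 and P4ha2 have means of -2.26, -2.07 and -2.04.

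Spots within the IZ differed in collagen, and most genes of the group, though not Plod1 and P4ha1, were higher in the collagen-rich spots. The IZ spots of each section were split into 3 equal parts by their share of Col1a1, Col1a2 and Col3a1 UMIs, and the sums of the top and bottom parts were compared with the section as a block. Here 8 of 10 genes were higher in the collagen-rich spots and 0 lower, where 4.40% of 10829 genes were called higher and 5.53% lower (5.73% and 4.81% with plain CPM, and again 8 members). Fkbp10 measured 335 against 205 CPM at 3 dpi, 503 against 308 in 5 dpi F and 519 against 289 in 5 dpi M, a log2 fold change of 0.71 (SE 0.07, edgeR adjusted p = 2.13e-06). Serpinh1 measured 2513 against 1629, 2909 against 1889 and 2647 against 1734 CPM, with a log2 fold change of 0.57 (SE 0.05, edgeR adjusted p = 6.15e-07). The rich part was thus higher in 3 of 3 sections for both chaperones.

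P4ha2, which had not passed between IZ and RZ, was higher in the collagen-rich spots, at 84.5 against 64.3 CPM at 3 dpi, 98.7 against 63.8 in 5 dpi F and 106 against 61.4 in 5 dpi M (log2 fold change 0.56, SE 0.11, edgeR adjusted p = 0.00292). P4ha3 (0.70), P3h1 (0.62), Crtap (0.44), Plod2 (0.43) and Plod3 (0.39) also passed. Plod2 had an edgeR adjusted p of 0.0468 and stayed past the threshold under only 6 of 14 alternatives. Plod1 had a log2 fold change of 0.16 (SE 0.08, edgeR adjusted p = 0.270) and P4ha1 one of 0.07 (SE 0.12, edgeR adjusted p = 0.831). Without 5 dpi F 4 genes passed, without 5 dpi M 5 and without the 3 dpi section 7, while without the section block 0 did. Leftover muscle differed between the parts: cardiomyocyte markers summed to 14945, 3530 and 4694 CPM in the rich part and to 23979, 10801 and 13727 CPM in the poor part, and macrophage markers to 7395, 11330 and 10135 CPM and to 7287, 10370 and 9735 CPM. Fibroblast markers were higher in the rich part in 5 of 7 cases, with a median log2 fold change of 0.49, and summed to 1847, 2743 and 2920 CPM against 1181, 1986 and 2149 CPM. Erythroid markers were lower in 4 of 4 cases, with a median of -1.41, and summed to 1581, 11436 and 11435 CPM against 6150, 40462 and 11600 CPM. The part of these cell types in the values of the group was not tested.

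When the same IZ spots were split by macrophage markers instead, the group did not move together. P4ha3 was higher in the macrophage-rich part, at 43.9 against 35.7 CPM at 3 dpi, 88.4 against 66.4 in 5 dpi F and 95.0 against 66.4 in 5 dpi M (log2 fold change 0.38, SE 0.11, edgeR adjusted p = 0.0131). P4ha2 was lower there, at 63.9 against 83.0, 67.7 against 86.3 and 54.6 against 92.2 CPM (log2 fold change -0.53, SE 0.11, edgeR adjusted p = 0.000802). Plod2 (-0.51) and Fkbp10 (-0.24) were also lower, which made 1 of 10 genes higher and 3 lower, where 14.1% of 10787 genes were called higher and 14.7% lower. Calls here were unstable: with DESeq2, and with edgeR without the section block, 1 gene passed in place of 4. Plod2 did not pass without 5 dpi M, and P4ha3 and Fkbp10 did not without either 5 dpi section, which left 2 genes without 5 dpi F and 1 without 5 dpi M, against 6 without the 3 dpi section. Direction also turned with the zone limit, for Fkbp10 to 0.0133 at 0.667 of the 90th percentile and to 0.47 with the limit set from the control, and for Plod2 to 0.0581 with the latter. Erythroid markers were lower in 4 of 4 cases and fibroblast markers higher in 4 of 7 and lower in 1. Neutrophil and lymphocyte markers were higher in 3 of 3 cases tested each, and 2 of 6 endothelial, 2 of 5 mural and 1 of 3 mesothelial markers were lower. The macrophage-poor parts held more muscle, with cardiomyocyte markers at 31940, 14481 and 18143 CPM against 9175, 1997 and 1694 CPM in the rich parts, and the part of these cell types in the differences was not tested.

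Levels in the IZ also differed between 3 and 5 dpi. There, 7 of 10 genes were higher in both 5 dpi sections than at 3 dpi, where 32.8% of 9232 genes with at least 10 CPM were. P4ha1 was lower in both, at 45.3 and 44.2 against 59.1 CPM, as were 46.5% of genes. Cell markers of the IZ moved with the day as well: cardiomyocyte markers summed to 20457 CPM at 3 dpi and to 6719 and 8676 CPM at 5 dpi, and macrophage markers to 7039 and to 11145 and 10612 CPM. Erythroid markers summed to 3331 CPM at 3 dpi and to 22826 and 11896 CPM at 5 dpi, and fibroblast markers to 1528 and to 2347 and 2578 CPM. The difference between 5 and 3 dpi in the IZ to RZ change was tested in a model over all zone sums with the section as a block, in which 0 of 10 genes passed by edgeR and 0 by DESeq2, where 0.736% of 10330 genes were called higher and 2.03% lower by edgeR. At an unadjusted p under 0.05 there was 1 gene, Fkbp10, with a difference of 0.77 on the log2 scale (SE 0.29, edgeR adjusted p = 0.176). With 1 heart at 3 dpi and 2 at 5 dpi this test found 10.7% of genes changed 2-fold in simulated counts, so that a difference of that size would mostly be missed. In the same test 12 of 12 cardiomyocyte markers were lower and 3 of 7 fibroblast markers and 1 of 8 macrophage markers higher, and their part in the values of the group was not tested.

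By plain CPM the RZ was itself not at the level of the control. All genes but Plod2 were above the control in the RZ of all 3 infarcted sections, and among the 9 genes with at least 10 CPM in the control or an RZ this held for 8, where 37.6% of 8581 genes were above and 17.8% below. Fkbp10 measured 54.8 to 68.5 CPM in the RZ against 26.7 CPM in the control, and Serpinh1 547 to 653 against 343 CPM. P4ha1 was barely above it, at 28.6 to 32.2 against 28.1 CPM. Macrophage markers summed to 1497 to 1970 CPM in the RZ and to 906 CPM in the control, and cardiomyocyte markers to 81801 to 98085 and to 101295 CPM. In the same order, fibroblast markers summed to 1746 to 2251 and to 2460 CPM, and erythroid markers to 6873 to 33250 and to 8667 CPM. Mural markers were at 330 to 500 and at 562 CPM, neutrophil markers at 21.8 to 80.0 and at 16.6 CPM, and endothelial markers at 1743 to 3416 and at 2670 CPM. The part of these cell types in these differences was not tested. These values set 3 sections beside 1 and have no test. TMM factors of the whole sections were 0.803 for the control and 1.02 to 1.12 for the infarcted sections. Small excesses over the control therefore depend on scaling.

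Of 14 other genes of collagen modification 13 were tested, and 11 were higher in the IZ than in the RZ and 0 lower, where 28.2% of all genes were higher, with a median log2 fold change of 0.89. They included Creb3l1, a transcription factor of procollagen genes (1.88), P3h3, a prolyl 3-hydroxylase relative (1.58), Slc39a13, a zinc transporter of the secretory pathway (1.18), and Colgalt1, a collagen galactosyltransferase (1.002). P4hb, the shared beta subunit of prolyl 4-hydroxylase, was higher by 0.999, between P4ha3 and the other alpha subunits, and Ppib, the cyclophilin of the P3h1 complex, by 0.87. P3h2 (-0.43) and Tmem38b (-0.53) did not pass.

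Substrates and extracellular steps are read against the 28.2% of all genes called higher in the IZ, or 48.6% with plain CPM. All 7 fibrillar collagen genes were higher in the IZ, with a median log2 fold change of 2.16, led by Col11a1 (4.26), Col1a2 (2.74), Col1a1 (2.73) and Col5a2 (2.16). Of 4 lysyl oxidases tested, which cross-link collagen outside the cell, 4 were higher, with Lox at 3.08 and Loxl3 at 3.04. For export and processing, 6 of 11 genes tested were higher and 0 lower, with Bmp1, a procollagen C-proteinase, at 2.31 and Adamts2, a procollagen N-proteinase, at 1.48. Basement membrane collagens had 2 of 4 higher, Col18a1 (1.65) and Col15a1 (0.72). General chaperones of the endoplasmic reticulum were also higher in 10 of 12 cases, with a median of 0.99 and with Creld2 at 1.70 and Manf at 1.37, so that higher levels were not limited to collagen-specific factors. In collagen-rich against collagen-poor IZ spots these general chaperones counted 5 of 12 higher, where 4.40% of all genes were, with a median of 0.16 beside 0.50 for the 10 genes.

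Genes known to answer to hypoxia went both ways. Of 11 tested, 2 were higher in the IZ than in the RZ, Slc2a1 (0.86) and Ndrg1 (0.75), where 28.2% of all genes were. Another 6 were lower, where 25.8% of all genes were, among them Vegfa (-2.10), Egln3 (-1.90), Bnip3 (-1.47) and Pdk1 (-1.38). Several of these 11 are also made by cardiomyocytes, whose 12 markers were all lower in the IZ, and the part of muscle loss was not tested. Of the members with the hypoxia letters in their promoters, Plod3, P3h1, Serpinh1 and Crtap were higher in the IZ and P4ha1, P4ha2 and Plod1 did not pass. P4ha3, whose window held 0 such letters, and Plod2 and Fkbp10, which had no entry, were also higher. A link between these letters and the levels was not tested. Of 7 fibroblast markers, 2 were higher, a share near the 28.2% of all genes, and Gsn was lower (-1.65), with a list median of 0.41. Their sum was lower in the IZ than in the RZ at 3 dpi, at 1528 against 2078 CPM, and higher in 5 dpi F, at 2347 against 2251 CPM, and in 5 dpi M, at 2578 against 1746 CPM. The EGFP transcript of the collagen reporter measured 2443, 7420 and 9201 CPM in the IZ and 874, 1892 and 2471 CPM in the RZ at 3 dpi, in 5 dpi F and in 5 dpi M. All 8 macrophage markers were higher, with a median of 1.81, as were 3 of 3 neutrophil markers tested, 1 of 1 lymphocyte and 1 of 1 mesothelial marker, while 4 of 4 erythroid, 4 of 6 endothelial and 3 of 5 mural markers were lower. The part of these cell types in the values of the group was not tested.

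Across the 12 zone sums of the infarcted sections, the gene profiles fell into a tight set and a loose one. Likeness was measured as Pearson's r of log2(CPM + 1), centred within each section, over these 12 points, which share libraries and zones, so that r is a description. The zone fits used the same sums, and a gene with a small zone change tends to a lower r. The sets are therefore not a result apart from the fold changes. Serpinh1 and Fkbp10 had r = 0.992, Serpinh1 and P3h1 0.981, and Fkbp10 and Plod3 0.981. P4ha1 was least like the others, with r from 0.404 with P4ha2 to 0.756 with Plod1. Its BZ2 level ran from 0.537-fold the RZ in 5 dpi M to 1.86-fold in 5 dpi F, so its zone profile was uneven between sections. Among 2708 genes with a mean of at least 50 CPM, those most like Serpinh1 were Rcn1, Itgav and Cd63 (r = 0.996, 0.996 and 0.995). Fkbp10 was most like Rcn1, Col1a2 and Adgre1 (0.991, 0.991 and 0.990), Plod3 most like Col14a1, Tcf25 and Vmp1 (0.993, 0.993 and 0.987), and P4ha3 most like Tspan4, App and Dad1 (0.982, 0.981 and 0.978). For Crtap these were Gdi2, Serp1 and H2-D1 (0.990 each), for P3h1 Ppt1, Serpinb6a and Atox1 (0.990, 0.985 and 0.985), and for Plod2 Clptm1l, Sumo3 and Maged2 (0.976, 0.972 and 0.969). The best matches of Plod1, P4ha1 and P4ha2 were lower, with Myo1c (0.931), Ncaph2 (0.906) and Pold4 (0.944).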

How the data were processed

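The files deposited by the authors hold raw UMI counts per gene and spot, made with Space Ranger and not normalized, from a mouse reference with a GFP sequence added. The labels name mm10 and the methods an Ensembl-based reference, and the files hold no coordinates, so positions are given only for the RefSeq promoters (GRCm38.p6). The 623 spots of 5 dpi M not marked as tissue were left out. As in the study, a spot needed 500 or more UMIs, 250 or more detected genes and a mitochondrial share of 50% or less. The 184 spot barcodes that the 4 matrices share are array positions, not cells. Depth was 3742105 to 9540940 non-mitochondrial UMIs per section, and intervals cover counting error only.

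A spot was low in muscle when its share of 12 cardiomyocyte markers was under 0.5 times the 90th percentile of its section. The IZ held low spots in patches of at least 10, BZ2 lay within 2 steps of it, BZ1 at 3 to 4 steps, and the RZ beyond. Low spots of smaller patches entered no zone. Counts were summed per section and zone, or per section and part of the IZ, and tested over all genes by the quasi-likelihood test of edgeR 4.0.16 in R 4.3.3, with TMM scaling, its default filter, the section as a block and Benjamini-Hochberg adjustment at 0.05. Sections, not spots, are the replicates. On simulated counts for IZ against RZ, 84.9% of 106 genes changed 2-fold and 100% of 87 genes changed 4-fold were recovered. Of 9811 genes simulated 9362 were tested, and 5.35% of calls were false. Few genes were changed there, whereas 28.2% of genes were called higher and 25.8% lower in the data. These rates therefore do not cover the dependence on scaling. DESeq2 1.42.0 was an alternative, as were other scalings, filters and zone limits. The members and gene lists were chosen with earlier results of these data known. Named genes were all members, up to 4 genes per other list with the largest called log2 fold change in IZ against RZ, and the 3 most alike genes per member. P4hb, Ppib, P3h2, Tmem38b, Slc2a1 and Ndrg1 were named after their values were seen.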

Additional observations from a re-analysis of the deposited data

Results flagged for a closer look

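A further 623 spots in the matrix of 5 dpi M lack the tissue mark and entered no comparison. In these spots each of the 10 genes was above its level in the control section, which is another heart. The share of all genes above the control there was not counted, so this is not shown to be a trait of the group. Serpinh1 measured 2057.9 CPM there, Fkbp10 359.4, Plod3 193.8, Plod1 183.5, P4ha2 126.1, Crtap 122.5, P3h1 116.6, Plod2 69.5, P4ha1 61.0 and P4ha3 52.5 CPM. P4ha2, Plod2 and P4ha1 were higher there than in any zone of the same section, where they reached 74.8, 42.4 and 44.2 CPM in the IZ, and the other 7 genes lay below their IZ level. Erythroid markers summed to 65502 CPM in these spots, against 11896 CPM in the IZ and 15423 CPM in the RZ of the section, and mesothelial markers to 66.4 CPM against 15.1 and 10.5 CPM. The part of these cell types in the levels was not tested.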

How the results depend on the processing

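Between IZ and RZ, Plod2, Plod3, P4ha3, P3h1, Serpinh1, Fkbp10 and Crtap stayed higher and past the threshold under all 13 alternatives, with log2 fold changes of 0.918 (lowest, Crtap) to 3.87 (highest, P4ha3). Counts of members called moved more elsewhere. For BZ2 against RZ (5) the count was 1 without the section block, 3 with the infarct limit at 0.667 of the 90th percentile, 0 with that limit at percentile 1 of the control, and 1 to 4 when each section was left out. For IZ against BZ2 (7) it was 3 at the limit of 0.333 and 5 to 7 with a section left out. For collagen-rich spots (8) it was 0 without the block and 4 to 7 with a section left out. For macrophage-rich spots (4) it was 1 with DESeq2, 1 without the block, 2 at the limit of 0.667 and 1 to 6 with a section left out. The cause of these changes was not tested.

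The median log2 ratio to the control was 1.38 at 3 dpi and 1.79 at 5 dpi with TMM, 2.21 and 2.74 over all UMIs, and 1.73 at 3 dpi without cardiomyocyte markers. The log2 change per collagen UMI was -1.5 with the limit from the control.

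Signs turned for members near 0 or with few UMIs. With a section left out, P4ha1 ranged from -0.376 to 0.382 (BZ2 against RZ), from -0.0355 to 0.725 (IZ against BZ2) and from -0.0237 to 0.166 (collagen-rich), Plod1 from -0.336 to 0.132 and P4ha2 from -0.124 to 0.0277 (both IZ against BZ2), and Crtap from -0.00383 to 0.128 (macrophage-rich). For IZ against BZ2, Plod1 was 0.11 and P4ha2 0.184 with plain CPM, 0.0337 and 0.108 with library sizes without cardiomyocyte markers, 0.0584 and 0.13 at the limit of 0.667, and 0.164 and 0.308 with the limit from the control, while P4ha1 was -0.224 at the limit of 0.333 and -0.0306 at 0.667. With the limit from the control, P4ha3 was -0.0406 for BZ2 against RZ, and for macrophage-rich spots Plod2 was 0.0581, Plod3 0.2, P3h1 0.381, Serpinh1 0.359 and Fkbp10 0.472. At 0.667 the macrophage-rich values were 0.0429 for P3h1, 0.0127 for Serpinh1 and 0.0133 for Fkbp10, and at 0.333 Crtap was -0.0162. The difference between 5 and 3 dpi turned at 0.667 for P4ha2 (-0.00396), P4ha3 (-0.179), P3h1 (-0.224) and Serpinh1 (-0.084), with the limit from the control for P4ha2 (-0.116), P4ha3 (-1.61) and P3h1 (-0.203), and with no spot filter for P4ha3 (-0.0727). That difference was not fitted with a section left out. Counts of 4 to 9 UMIs in the RZ limit P4ha3, and 3 to 28 outside the IZ limit Plod2.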
